A study of Mus musculus with 8 samples.

Results

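The genes described here are 10 members of the Notch signalling system measured in embryonic mouse brain with and without REST, the transcriptional repressor of neuronal genes. They are the ligands *Dll1*, *Dll3* and *Jag1*, the receptors *Notch1* and *Notch2*, the fringe enzymes *Lfng* and *Mfng*, and the *Hes* genes *Hes1*, *Hes5* and *Hes6*. The members were set as a list of names. All 17 probe sets that the array annotation assigns to one of these genes alone were taken, of 45037 probe sets tested in all, and the genes are 10 of 18193. Brains were collected at E12.5, a mid-gestation stage at which neurogenesis is under way, from C57/BL6 embryos of 2 genotypes, with 4 arrays labelled as biological replicates for each. In Nestin Cre+, Rest GTi/GTi embryos (Cre+ below) a Nestin-driven Cre recombinase, which acts in neural progenitors, turns an inverted gene trap in *Rest* back into its disrupting orientation. The control Rest GTi/GTi littermates carry the same inverted trap on both alleles and no Cre, so that Cre and the loss of REST go together and cannot be told apart. The sources used here do not say if embryos were pooled for an array, and the p-values measure the spread between arrays.

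Notch signalling passes between touching cells. A Delta or Jagged ligand on one cell binds a Notch receptor on its neighbour, the receptor is cut, and its intracellular part enters the nucleus and joins the DNA-binding protein RBPJ to switch on *Hes* and *Hey* genes. In the embryonic brain the HES repressors hold down proneural genes and keep progenitors dividing, whereas cells with high proneural activity carry more Delta ligand and differentiate. Dll3 and HES6 stand apart within their families. Dll3 stays mostly inside the cell and dampens Notch signalling rather than activating a neighbour, and HES6 promotes neuronal differentiation and opposes HES1.

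The promoter stretches below are those of *Dll3* and *Hes6*, the only members whose Cre+ arrays all lay under the controls on the brightest probe set, and of *Hes5*, a direct target of the pathway whose arrays overlapped. Each is the 250 bases before a transcription start annotated by RefSeq on mouse GRCm38.p6, read 5′ to 3′ on the gene's own strand. In *Dll3* (chr7:28301786-28302035, minus strand) and in *Hes6* (chr1:91414039-91414288, minus strand, the first of 2 annotated starts) the capitals mark E-boxes, CANNTG, the letters bound by proneural factors. In *Hes5* (chr4:154960673-154960922, plus strand) they mark TGGGAA on either strand, the core letters bound by RBPJ. The *Hes5* stretch also holds an E-box, CACCTG, 194 bases before the start, which is left in lower case.
*Dll3*: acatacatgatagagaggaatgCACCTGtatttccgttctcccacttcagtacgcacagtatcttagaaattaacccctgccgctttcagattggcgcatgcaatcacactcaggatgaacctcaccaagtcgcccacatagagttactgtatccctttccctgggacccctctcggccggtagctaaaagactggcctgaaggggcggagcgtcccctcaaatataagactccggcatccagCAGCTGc
*Hes6*: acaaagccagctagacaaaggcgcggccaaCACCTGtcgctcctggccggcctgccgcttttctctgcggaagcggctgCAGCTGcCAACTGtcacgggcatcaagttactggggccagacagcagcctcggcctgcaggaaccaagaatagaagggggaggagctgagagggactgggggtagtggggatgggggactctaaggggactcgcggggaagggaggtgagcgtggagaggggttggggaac
*Hes5*: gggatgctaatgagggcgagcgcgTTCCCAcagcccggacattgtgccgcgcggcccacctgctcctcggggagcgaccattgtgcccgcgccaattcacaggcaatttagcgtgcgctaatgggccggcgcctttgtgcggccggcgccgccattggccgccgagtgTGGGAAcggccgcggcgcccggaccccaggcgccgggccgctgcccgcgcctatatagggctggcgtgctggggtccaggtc

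Starts were found for 8 of the 10 members, at 10 positions, and *Hes1* and *Mfng* are named only. In *Dll3* the E-boxes began 228 and 7 bases before the start, and in *Hes6* they began 220, 171 and 164 bases before it. An E-box stood in 8 of the 10 member stretches and in 66.2% of 32851 promoter stretches of the same length. The E-box form CAGCTG, which is counted among the former, stood in 6 of 10 and in 13% of all. The RBPJ letters stood in 2 of 10, those of *Hes5* (226 and 82 bases before the start) and of *Lfng* (135 and 108 bases), and in 21.6% of all. The N-box CACNAG, bound by HES repressors and searched on both strands, stood in 4 of 10 and in 36.7% of all. No member stretch held the RE1 core, the element bound by REST, which stood in 0.0335% of all. Only an exact form of this core was searched, and only before the start. The authors place RE1 sites of *Snap25* and of a glycine receptor gene after the start. The count therefore does not say whether the members hold REST sites. These matches describe letters and not binding.

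Values are given as normalized intensity, the brightness of a probe set after the 8 arrays were given one common distribution, and levels of different probe sets cannot be compared with each other. A difference between genotypes is given as a log2 fold change, Cre+ minus control, of the intensity plus 16, with limma as the test and Benjamini-Hochberg adjustment over all probe sets. *Rest* itself, on its brightest probe set, measured 163.1, 216.7, 84.4 and 133.7 in Cre+ replicates 1 to 4 and 170.1, 271.8, 211.1 and 198.3 in control replicates 1 to 4 (log2 fold change -0.51, two-sided exact permutation p = 0.143). By *Rest* alone, the library labelled Cre+ replicate 2 lay within the control range and did not bear out its label. Its name below means only the array so labelled. On a further *Rest* probe set (log2 fold change -0.63, exact permutation p = 0.143), Cre+ replicates 1 and 2, at 161.0 and 203.6, both lay within the control range of 158.4 to 223.1. On the array labelled Cre+ replicate 2 the 9 microglial markers summed to 2057, with the other Cre+ arrays at 1889, 2075 and 1961. The controls lay between 600 and 711. The 10 mesenchyme markers summed to 9612 and 13810 in Cre+ replicates 1 and 2 and to between 460 and 1296 on the other 6 arrays. The authors also detected *Rest* in tissue outside the developing nervous system. The part of such tissue in these *Rest* values was not tested. *Xist* and *Eif2s3y* gave male signal on all 4 Cre+ arrays and on 2 of the 4 controls. The 8 apical progenitor markers summed to between 27593 and 29890 on every array, a sum led by *Vim* and *Fabp7* (means 10787.8 and 8254.5). It therefore says little of the dimmer markers. The log2 fold changes of the 8 had a median of -0.03, 5 below 0 and 3 above, and 0 were called. *Sox2* gave -0.11, *Pax6* -0.04 and *Sox9* -0.19.

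No member passed the test. Of the 10 genes, each read by its brightest probe set, 0 had an adjusted p under 0.05, where 0.225% of all genes did, and of the 17 probe sets 0 did, where 0.14% of all probe sets did. At an unadjusted p under 0.05 there were 2 members, *Dll3* and *Hes6*, both lower in Cre+ brain, and 6.97% of all genes. In these 2 every Cre+ array lay below every control array, as in 2.15% of all genes, and in 0 members did every Cre+ array lie above, as in 2.48% of all genes. The log2 fold changes of the 10 genes ran from -0.30 to 0.26 with a median of -0.06, 6 of them below 0, beside a median of -0.0014 and 50.5% below 0 over all genes. For 9 of the 10 genes the 95% interval of the fold change lay within 1.5-fold in either direction, the exception being *Notch2*, as it did for 14698 of all 18193 genes and for 8628 of 9096 genes above the median intensity.

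**Figure D1:**
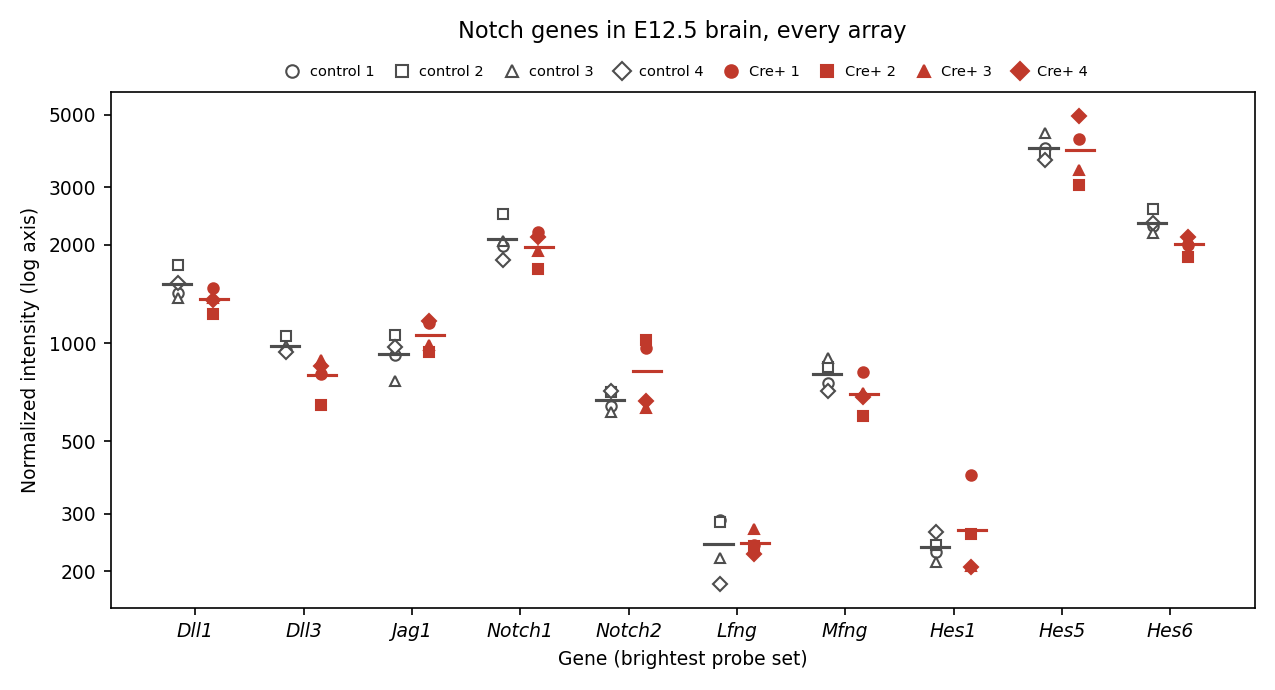
Normalized intensity (log axis) of the brightest probe set of each of the 10 genes on every array, with open symbols for control, filled symbols for Cre+, one symbol shape per replicate number and bars for the 4-array means. In *Dll3* and *Hes6* all 4 Cre+ arrays lie below the 4 controls, in *Notch2* only Cre+ replicates 1 and 2 lie above them, and heights of different genes are not comparable.

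Among the 3 member ligands, *Dll3* had the lowest log2 fold change. Its normalized intensity was 804.8, 647.7, 887.0 and 851.3 in Cre+ replicates 1 to 4 and 952.7, 1049.3, 978.0 and 935.5 in control replicates 1 to 4. The groups did not overlap, Cre+ replicate 2 was the lowest array and the nearest arrays of the groups were Cre+ replicate 3 and control replicate 4. Means were 797.7 ± 105.5 (SD, n = 4) in Cre+ and 978.9 ± 50.1 (SD, n = 4) in control brain. This gave a log2 fold change of -0.30 (standard error 0.10, 95% interval -0.54 to -0.06, limma adjusted p = 0.643). In whole-brain RNA, fewer cells of a type and less RNA per cell cannot be told apart.

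*Dll1*, the main activating Delta ligand of brain progenitors and newborn neurons, measured 1477.9, 1225.6, 1377.3 and 1358.2 in Cre+ replicates 1 to 4 and 1425.4, 1732.8, 1375.2 and 1530.9 in control replicates 1 to 4. All 4 Cre+ arrays lay below the control mean, but the groups overlapped. The log2 fold change was -0.15 (standard error 0.09, 95% interval -0.37 to 0.06, limma adjusted p = 0.818), and without control replicate 2 it was -0.09.

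*Jag1*, the Jagged ligand, went the other way on its brightest probe set, with 1149.0, 941.7, 983.7 and 1168.7 in Cre+ replicates 1 to 4 against 918.9, 1061.5, 764.5 and 969.6 in control replicates 1 to 4. Every Cre+ array lay above the control mean and the groups overlapped (log2 fold change 0.19, standard error 0.12, 95% interval -0.08 to 0.46, limma adjusted p = 0.816). The other *Jag1* probe sets disagreed in sign, one giving 0.14 (adjusted p = 0.89) and the dimmest -0.27 (adjusted p = 0.804), so that no direction can be given for the gene.

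The receptors showed no difference beyond the spread of the arrays. *Notch1*, the main receptor of neural progenitors, measured 2178.9, 1678.9, 1906.6 and 2112.4 in Cre+ replicates 1 to 4 and 1979.3, 2490.1, 2047.1 and 1794.8 in control replicates 1 to 4. Both groups spanned much the same range, with control replicate 2 at the top and Cre+ replicate 2 at the bottom. The log2 fold change was -0.07 (95% interval -0.35 to 0.21, limma adjusted p = 0.955), and the dimmer probe set gave -0.10 (adjusted p = 0.919).

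*Notch2*, a receptor also used by mesenchymal and vascular cells, was 966.0, 1018.2, 631.0 and 663.6 in Cre+ replicates 1 to 4 and 641.2, 708.5, 617.0 and 713.4 in control replicates 1 to 4. Only Cre+ replicates 1 and 2 lay above the controls, and Cre+ replicates 3 and 4 lay inside the control range. These are the 2 arrays with the high mesenchyme sums. The log2 fold change was 0.26 (standard error 0.16, 95% interval -0.12 to 0.63, limma adjusted p = 0.822) and without these 2 arrays it was -0.05. Another *Notch2* probe set, with a mean of 14.1, lay below the added constant and gave -0.25 (adjusted p = 0.907), opposite in sign to the brighter one.

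The fringe enzymes add sugars to the Notch receptors and so tune which ligands the receptors answer to. *Mfng* measured 813.0, 596.0, 701.1 and 683.0 in Cre+ replicates 1 to 4 and 755.0, 845.9, 901.8 and 711.1 in control replicates 1 to 4. Cre+ replicates 2, 3 and 4 lay below every control and Cre+ replicate 1 did not (log2 fold change -0.20, standard error 0.11, 95% interval -0.46 to 0.06, limma adjusted p = 0.80). With male controls alone the value was -0.08, with *Eif2s3y* as a covariate -0.06, and without Cre+ replicate 2 it was -0.13. *Lfng* was 240.4, 238.7, 269.8 and 226.8 in Cre+ replicates 1 to 4 and 286.5, 284.3, 220.7 and 182.6 in control replicates 1 to 4. Its Cre+ arrays all lay inside the control range, at a log2 fold change of 0.02 (95% interval -0.30 to 0.35, adjusted p = 0.995), and its other probe set, with a mean of 12.6, lay below the added constant and gave -0.10 (adjusted p = 0.877).

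Of the *Hes* genes, *Hes6* was lower in Cre+ brain on both of its probe sets, and on the brighter one the groups did not overlap. The brighter probe set measured 1998.1, 1834.8, 2085.6 and 2111.8 in Cre+ replicates 1 to 4 and 2277.7, 2564.5, 2169.1 and 2330.0 in control replicates 1 to 4. The closest arrays were Cre+ replicate 4 and control replicate 3. Means were 2007.6 ± 125.0 (SD, n = 4) and 2335.3 ± 166.9 (SD, n = 4). The log2 fold change was -0.22 (standard error 0.08, 95% interval -0.40 to -0.03, limma adjusted p = 0.674). On the dimmer probe set, 1238.6, 1066.6, 1209.0 and 1416.3 in Cre+ replicates 1 to 4 stood against 1283.4, 1423.2, 1395.1 and 1356.9 in control replicates 1 to 4. There Cre+ replicate 4 lay among the controls and the log2 fold change was -0.15 (adjusted p = 0.816), which came to -0.08 without Cre+ replicate 2 and to -0.06 without Cre+ replicates 1 and 2. The names of both probe sets mark them as able to hybridise with several transcripts.

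*Hes5*, the *Hes* gene most closely tied to Notch activity in brain progenitors, measured 4199.7, 3051.2, 3377.4 and 4955.4 in Cre+ replicates 1 to 4 and 3955.4, 3811.7, 4376.4 and 3640.2 in control replicates 1 to 4. The Cre+ arrays fell on both sides of the control range, with the highest and the lowest array of the 8 among them. Their SD of 855.8 compared with 314.6 in controls, at means of 3895.9 and 3945.9. The log2 fold change was -0.04 (95% interval -0.38 to 0.30, limma adjusted p = 0.987) and on the dimmer probe set -0.09 (adjusted p = 0.948), and both intervals lay within 1.5-fold either way. The name of the brighter *Hes5* probe set also marks it as able to hybridise with several transcripts.

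*Hes1*, the repressor that progenitors share with many other cell types, was 395.8, 259.7, 207.2 and 205.9 in Cre+ replicates 1 to 4 and 230.0, 241.7, 213.3 and 264.0 in control replicates 1 to 4. Cre+ replicate 1 stood above all other arrays, while Cre+ replicates 3 and 4 were the lowest of the 8. The log2 fold change was 0.12 (standard error 0.19, 95% interval -0.32 to 0.55, limma adjusted p = 0.954), and 1 array decided its sign, since without Cre+ replicate 1 it was -0.08.

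**Figure D2:**
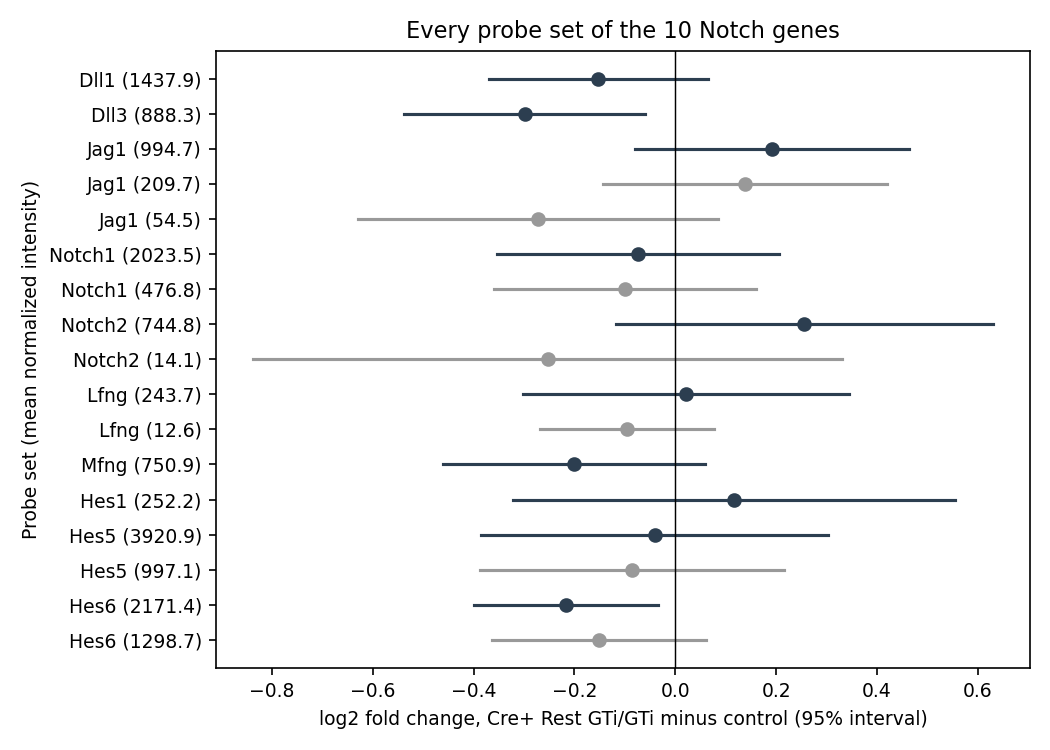
Log2 fold change, Cre+ minus control, of all 17 probe sets with the 95% interval from limma, the brightest probe set of each gene in dark and the others in grey, and mean normalized intensity in brackets. The intervals of the *Dll3* probe set (-0.54 to -0.06) and of the brighter *Hes6* probe set (-0.40 to -0.03) lie below 0 before adjustment, and the 15 others cross 0.

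The lower values of *Dll3* and *Hes6* were checked against the libraries and the scaling. Without Cre+ replicates 1 and 2 the log2 fold change was -0.17 for *Dll3* (limma adjusted p = 0.861) and -0.15 for *Hes6*, and with the 2 male controls alone it was -0.25 and -0.20. Without the array labelled Cre+ replicate 2 alone, whose *Rest* value lay among the controls, it was -0.20 and -0.17. Their groups stayed apart with arrays scaled to a common median and with cyclic loess, and overlapped with no scaling, where *Dll3* gave -0.25 and *Hes6* -0.17. The median of all genes shifted by -0.04, 0.01 and 0.05 under these scalings. Over the 8 arrays the log2 values of *Dll3* and *Hes6* had a Pearson r of 0.91, and those of *Dll1* and *Hes6* of 0.87, which includes the difference between the genotypes and anything the arrays share. These were the highest of all member pairs, and the lowest was *Dll3* with *Notch2* at -0.79. *Dll3* and *Hes6* were picked for lying lower in Cre+ brain, which itself raises their r, so it is no further support.

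The arrays differed among themselves in the members they held at the extremes. Cre+ replicate 2 was the lowest of the 8 arrays for 6 of the 10 genes, *Dll1*, *Dll3*, *Notch1*, *Mfng*, *Hes5* and *Hes6*, and the highest for *Notch2*. Control replicate 2 was the highest for 4, *Dll1*, *Dll3*, *Notch1* and *Hes6*. The median deviation of the 10 genes from the control mean was -0.30 on Cre+ replicate 2, against 0.05, -0.13 and -0.11 on Cre+ replicates 1, 3 and 4 and between -0.11 and 0.12 on the control arrays.

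Markers of other tissues moved with some of the same arrays. All 10 mesenchyme markers had a log2 fold change above 0 and 0 were called, with a median of 1.31, and none of them was at 0 on Cre+ replicates 1 and 2. The 7 roof plate and choroid plexus markers summed to 5965 and 6189 on those 2 arrays, to 3649 on control replicate 4 and to between 485 and 733 on the other 5. This sum was led by *Ttr*, at 4671.6 and 5232.5 on those 2 arrays and 2863.6 on control replicate 4. Of the 7 log2 fold changes, 5 lay above 0 and 2 below. The 9 endothelial markers summed to 1817 and 1466 on Cre+ replicates 1 and 2 and to between 957 and 1163 on the others. The sums of the 8 hindbrain *Hox* genes ran from 69 to 1508 in Cre+ and from 109 to 596 in control brain. Those of the 7 telencephalon markers ran from 5512 to 6870 and from 6918 to 7511. Of these 7, only *Dlx1* (log2 fold change -0.68) and *Dlx2* (-0.56) had every Cre+ array below every control. *Six3* gave -0.22, *Emx2* -0.08, *Otx1* -0.02, *Lhx2* -0.01 and *Emx1* 0.55, so the sums do not describe all 7 markers. Of the 9 microglial markers, 9 were called higher. The part of these tissues in the values of the Notch genes was not tested.

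**Figure D3:**
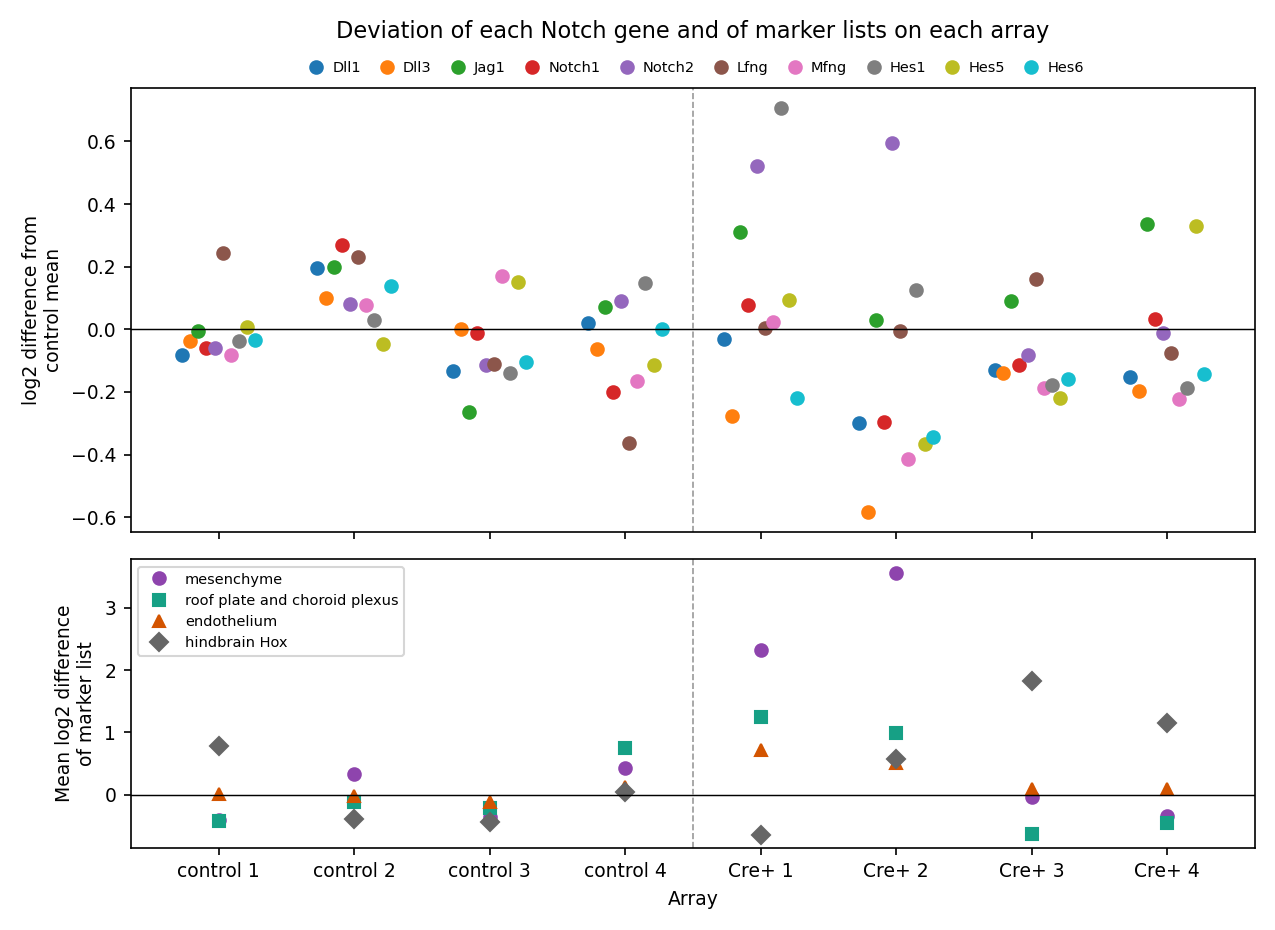
Upper panel, log2 difference of each of the 10 genes on each array from the mean of the 4 controls. Lower panel, the mean of the same difference over each of 4 marker lists. Cre+ replicates 1 and 2 carry both the high *Notch2* values and the high mesenchyme mean, and Cre+ replicate 2 also holds the lowest *Dll3* value.

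By the highest Pearson r of log2 values over the 8 arrays, among 9095 genes above the median intensity, the genes nearest to *Dll3* were *Kcnn1* (0.98), a potassium channel gene, and *Nkx2-2* (0.98), a transcription factor of the ventral neural tube. Those nearest to *Hes6* were *Uck1* (0.99) and *Specc1* (0.97). *Notch2* lay nearest to the collagen gene *Col1a2* (0.99), one of the mesenchyme markers, and to *Ppic* (0.99), and *Hes1* to *Cd93* (0.98), a gene of endothelial and myeloid cells, and to *Lsm2* (0.98). These values describe the 8 arrays, which also share the genotype difference and the marker sums given above. Searched over so many genes, every member had a high top r, the lowest being 0.94 (*Mfng* with *Bccip*). *Notch2* and *Col1a2* were both highest on Cre+ replicates 1 and 2, and their Spearman rank correlation was 0.81. *Hes1* stood out on Cre+ replicate 1 alone. An r found in this way does not place a gene in a cell type.

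A further 43 genes of the pathway were read in the same fit. Of the 43, 0 were called in either direction, where 0.225% of all genes were, and 2 were lower at an unadjusted p under 0.05, which is 4.65% beside 6.97% of all genes. Log2 fold changes were above 0 in 21 and below 0 in 22, or 51.2% beside 50.5% of all genes, with a median of -0.00083. These shares lay near those of all genes.

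The 2 genes were *Dll4* and *Dtx2*, each on its brightest probe set. *Dll4*, a Delta ligand best known from blood vessels, was dim, at 31.2, 19.8, 22.5 and 42.6 in Cre+ replicates 1 to 4 and 37.3, 46.1, 49.7 and 37.1 in control replicates 1 to 4, with overlapping groups (log2 fold change -0.40, standard error 0.16, limma adjusted p = 0.693). Another *Dll4* probe set of nearly the same brightness gave -0.01 (adjusted p = 0.998), so that no direction can be given for the gene. *Dtx2*, a ubiquitin ligase of the Deltex family, was 198.3, 153.8, 190.4 and 187.6 in Cre+ replicates 1 to 4 and 213.8, 214.1, 212.6 and 202.4 in control replicates 1 to 4, and its groups did not overlap (-0.20, standard error 0.09, limma adjusted p = 0.724), while its other probe set gave -0.09 (adjusted p = 0.888).

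Through the rest of the pathway the log2 fold changes of the named genes were small. The ligand *Jag2* gave 0.03, the receptor *Notch3* 0.01, the fringe gene *Rfng* 0.00 and *Mib1*, the ubiquitin ligase that activates ligands by endocytosis, -0.03. *Rbpj*, which encodes the DNA-binding partner of the receptors, gave -0.15 (limma adjusted p = 0.797), with 1555.0 to 1725.2 on the Cre+ arrays and 1646.8 to 2060.6 on the controls. The targets *Hey1* and *Nrarp*, the latter a feedback inhibitor, gave 0.09 and -0.10.

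**Figure D4:**
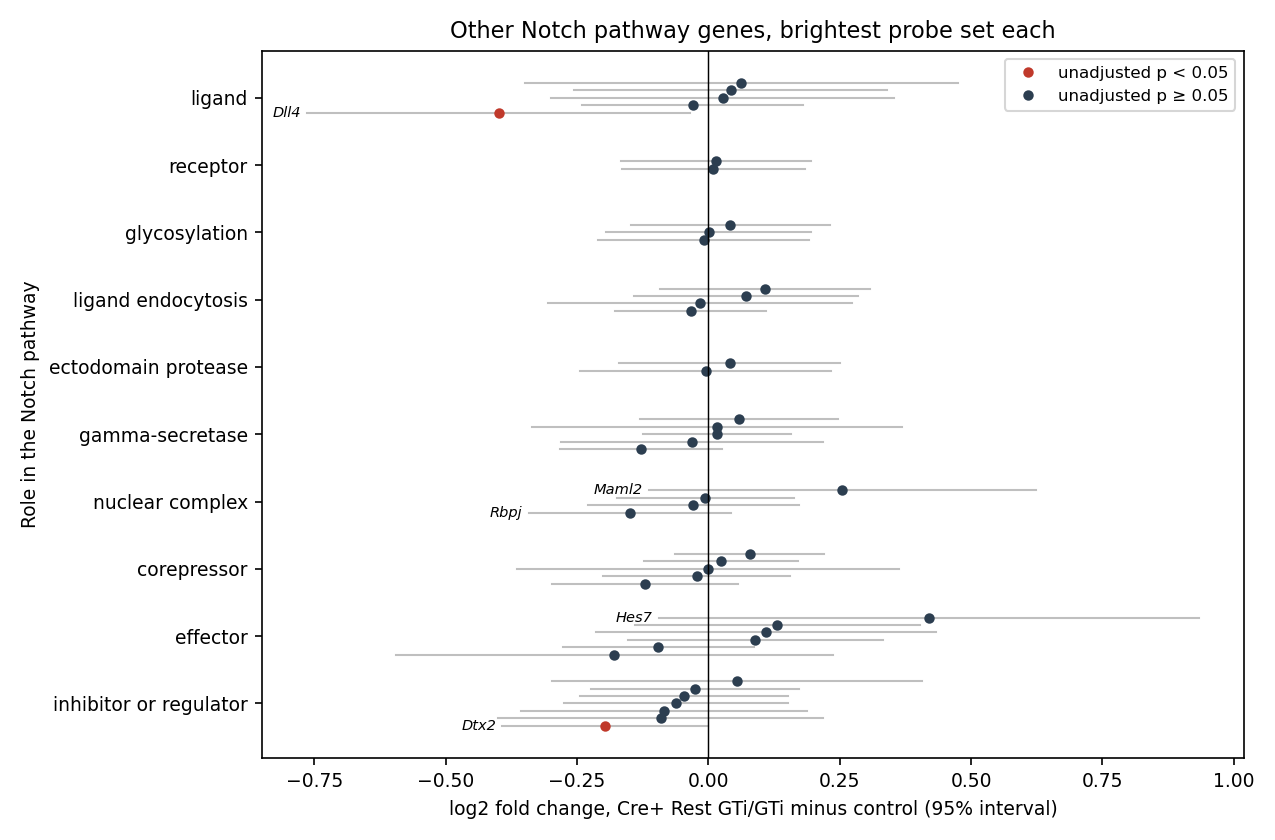
Log2 fold change, Cre+ minus control, with the 95% limma interval of the 43 other Notch pathway genes grouped by role, with unadjusted p under 0.05 in red. Only *Dll4* (-0.40) and *Dtx2* (-0.20) are in red, and neither passed adjustment.

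The proneural and basal progenitor factors, which HES repressors hold down, were read beside the members. Of 8 listed, 7 were named by a probe set, 0 were called, where 0.225% of all genes were, and 5 lay below 0 with a median log2 fold change of -0.13. An unadjusted p under 0.05 was met by 2 of the 7 and by 6.97% of all genes. These 2 were *Neurod4*, with 154.2 to 202.1 on the Cre+ arrays and 181.2 to 253.8 on the controls (-0.35, limma adjusted p = 0.629), and *Insm1*, with 1385.8 to 1633.0 against 1634.8 to 1871.6 (-0.19, adjusted p = 0.714). *Neurod4* overlapped between the groups and its next brightest probe set gave -0.05 (adjusted p = 0.956), and in *Insm1* the highest Cre+ array and the lowest control nearly met. *Eomes* gave 0.12 (adjusted p = 0.911) and *Neurod1* 0.03 (adjusted p = 0.972), both chosen after their values were seen because they lay above 0. On their other probe sets *Eomes* gave 0.29 (limma adjusted p = 0.769) and *Neurod1* -0.02 (limma adjusted p = 0.989). No direction can therefore be given for *Neurod1*.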

How the data were processed

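Biotin-labelled RNA of 8 E12.5 brains or pools was hybridised to 1-colour Affymetrix Mouse 430_2 arrays. The authors' methods name RMA, a log2 step and, between genotypes, a t-test adjusted by Benjamini-Hochberg. RMA is also named in the submitters' processing notes, with no version. The deposited values, however, were linear intensities, 1 for each probe set, down to 0, with array medians between 40.9 and 68, and which step made them is not stated. After 64 Affymetrix controls were left out, the arrays were quantile normalized, 16 was added, and log2 values of 45037 probe sets were fitted with lmFit and eBayes (R 4.3.3, limma 3.58.1), all 8 arrays in one fit, Benjamini-Hochberg over all probe sets, called at 0.05. The added constant makes fold changes of dim probe sets too small, and 30.6% of probe sets had a mean below it. The annotation gave 1 gene to 34945 probe sets, several to 932 and none to 9160. A gene was read by its probe set with the highest mean. The number of arrays limits the precision.

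The members and lists were chosen with earlier results of these data known. Named were all members, 8 pathway genes (*Dll4*, *Jag2*, *Notch3*, *Rbpj*, *Hey1*, *Nrarp*, *Rfng* and *Mib1*), other pathway or proneural genes at an unadjusted p under 0.05, and the 2 genes most alike for 4 members. The fit was tested on simulated data, with changes larger than those of the members. That test does not show that changes as small as theirs would be found. Alternatives were the methods' t-test, the Welch form, trend and robust options in eBayes, leaving out dim probe sets or those that may hybridise with several transcripts, 3 other scalings, constants of 1 and 50, the mean of a gene's probe sets, a replicate block, sex, and leaving out arrays. The residuals showed no pairing of the arrays by replicate number, which does not exclude it. Promoter letters came from RefSeq on GRCm38.p6.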

Additional observations from a re-analysis of the deposited data

How the results depend on the processing

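Across 23 settings 0 of the 17 member probe sets and 0 of the 43 other pathway genes passed the threshold. *Dll3* was lower in all of them, from -0.36 to -0.17 on the log2 scale (lowest adjusted p 0.488), and the brighter *Hes6* probe set in the 22 that keep it, from -0.29 to -0.15 (lowest adjusted p 0.511). Of the single values 22 changed sign and 357 did not, the former all in *Lfng*, *Hes5*, *Notch1*, *Notch2* or *Hes1*.

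The number of genes called was 41 and came to 14 with the methods' t-test, 0 with the Welch form, 2 with no scaling, 26 with a constant of 1, 0 with the replicate block, 14 with *Eif2s3y* as a covariate, 7 with male controls alone, 0 without Cre+ replicates 1 and 2, and between 21 and 31 with 1 array left out. The residuals of arrays of the same number correlated between -0.13 and 0.00676, with 0 of 8 closest to their own number. They showed no pairing by number but cannot exclude it, since the arrays also differed in marker sums and sex. The replicate block called 0 members, as did the main fit. The median of the other pathway genes was -0.053 with a common median and 0.060 with no scaling, and that of the 10 members, -0.057, was 0.040 with *Eif2s3y* as a covariate, 0.034 with male controls alone, -0.13 with a common median, -0.015 with no scaling and between -0.13 (without Cre+ replicate 4) and 0.015 (without Cre+ replicate 2) with 1 array left out.

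With a common median *Lfng* gave -0.022 and with the mean of its probe sets -0.037. With no scaling *Hes5* gave 0.0011. With *Eif2s3y* as a covariate and with male controls alone, *Hes5* gave 0.024 and 0.012, *Notch1* 0.061 and 0.055, and the dim *Notch2* probe set 0.11 and 0.10. Without Cre+ replicates 1 and 2, *Hes5* gave 0.055, *Notch2* -0.046, the dim *Notch2* probe set 0.031 and *Hes1* -0.18. With 1 array left out, *Lfng* ran from -0.10 to 0.10, *Hes5* from -0.16 to 0.068 and on its dimmer probe set from -0.19 to 0.026, *Notch1* from -0.14 to 0.016 and *Hes1* from -0.079 to 0.22. The cause of these shifts was not tested. With 4 arrays a genotype, a difference smaller than a gene's interval could not be told from the spread.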
